A study of Rattus norvegicus with 6 samples.

Results

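CpG islands that lay inside genes, away from annotated promoters, carried 1443 of the 5849 CG-context regions that differed in DNA methylation between chronically stressed and unstressed rats. A region belonged to this set when the annotation placed it in a CpG island and in at least 1 gene-body feature (exon, intron, 5′ UTR, 3′ UTR, TSS or TES) and in no promoter. The levels were higher under stress in 1395 of the 1443 regions (96.7%), against 80% of all listed CG regions, and lower in 48 (3.33%), against 20% of all. The median level was 17.4% in stressed and 6.23% in unstressed rats. Regions of all contexts numbered 24869.

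The cells were brain microvascular endothelial cells (BMECs), which line the vessels at the blood–brain barrier, and had been sorted as CD45-/CD31+ cells from the hippocampus. All groups were adult male Sprague-Dawley rats, per the study's methods. The CUMS group (n = 3 samples) underwent 8 weeks of chronic unpredictable mild stress, with a changing stressor such as restraint, deprivation of food and water, a tilted cage, wet bedding, a cold swim or continuous light, and the Ctrl group (n = 3 samples) stayed undisturbed in home cages. The number of animals behind each sample is not given in the sources used here. The deposited tables held 1 level per group, in which the samples had been combined, and no coverage or value per sample. The study's methods state a genome-wide coverage for the samples, but the depth behind a region's level was unknown, the spread between rats could not be seen, and no test was run. All differences below are between 2 group levels, in percentage points, CUMS minus Ctrl, and a region is called hypermethylated or hypomethylated when its level was higher or lower in CUMS.

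CpG islands are stretches of DNA rich in the CG dinucleotide that mostly stay unmethylated in vertebrate cells, because many of them serve as transcription start sites. Islands inside genes can act as start sites of alternative transcripts, and they gain methylation in differentiated tissue more often than promoter islands do. Gene bodies outside islands are, in contrast, commonly methylated, and at imprinted genes an island is methylated on the copy from 1 parent.

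The sequences of the regions themselves were not printed, since a genome of the build of the tables, mRatBN7.2, was not used here. To show what CG-rich DNA near such genes looks like, the 250 bases upstream of the RefSeq start were taken for Vegfa and Basp1, which each held 4 hypermethylated regions, and for Rprd1b, which held the largest fall in a gene with a symbol. These 3 genes were chosen after their values were seen, and the windows are RefSeq promoters on build GRCr8, not the regions measured. CG dinucleotides are in capitals, and each sequence reads 5′ to 3′. For Vegfa, which has 2 windows in the table, the one with more CG dinucleotides is shown. It is chr9:22452604-22452853 on the plus strand with 12 CG dinucleotides, the Basp1 window is chr2:77594298-77594547 on the minus strand with 30, and the Rprd1b window is chr3:167102659-167102908 on the plus strand with 26.
Vegfa: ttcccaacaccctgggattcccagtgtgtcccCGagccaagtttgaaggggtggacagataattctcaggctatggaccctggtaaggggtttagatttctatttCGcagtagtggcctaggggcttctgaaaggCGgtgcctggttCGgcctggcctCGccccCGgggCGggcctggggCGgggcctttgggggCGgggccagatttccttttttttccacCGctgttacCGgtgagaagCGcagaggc
Basp1: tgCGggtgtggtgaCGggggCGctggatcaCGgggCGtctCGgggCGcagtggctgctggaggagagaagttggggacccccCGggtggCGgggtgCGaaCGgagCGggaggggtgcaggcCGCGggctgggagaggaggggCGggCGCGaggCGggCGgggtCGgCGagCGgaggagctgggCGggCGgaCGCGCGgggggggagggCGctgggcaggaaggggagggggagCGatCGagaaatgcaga
Rprd1b: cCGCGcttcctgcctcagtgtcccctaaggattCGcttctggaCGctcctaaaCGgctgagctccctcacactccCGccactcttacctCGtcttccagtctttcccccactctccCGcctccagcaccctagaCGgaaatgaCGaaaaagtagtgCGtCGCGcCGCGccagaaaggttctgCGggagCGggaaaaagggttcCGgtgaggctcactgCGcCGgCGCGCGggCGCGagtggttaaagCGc

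In the RefSeq table, the median upstream window held 6 CG dinucleotides over 27457 genes. Of the 529 genes with a region in the 5′ UTR, 429 (81.1%) were matched by symbol, and their median was 20. Genes with regions in introns only (319 of 398 matched, 80.2%) also had a median of 20, and genes with hypomethylated regions (41 of 48 matched, 85.4%) had 19. Every gene of the set had to hold a CpG island, so these higher counts follow in part from the choice of regions. For all genes of the set together the comparison is void, because 79.9% were matched, which is under the 80% set for such a check.

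The regions started from low methylation. In Ctrl, 1207 of the 1443 regions (83.6%) were below 10%, and the lowest level was 3.15%. All 1207 were higher in CUMS, as were 99 of 100 regions from 10 to 20%. A region that starts at 6% cannot fall by more than 6 points, so this direction was in part set by the level itself. Over the 1395 hypermethylated regions the CUMS level was a median of 2.70 times the Ctrl level, with quartiles of 2.31 and 3.26. The median absolute difference over the set was 11.2 points (quartiles 8.01 and 16.7, range 2.87 to 52.7). A CUMS level above 50% was reached by 75 of the hypermethylated regions, 42 of them from below 50% in Ctrl. Most gains ended far from full methylation, with 51.6% as the 95th percentile of the CUMS level in hypermethylated regions.

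**Figure D1:**
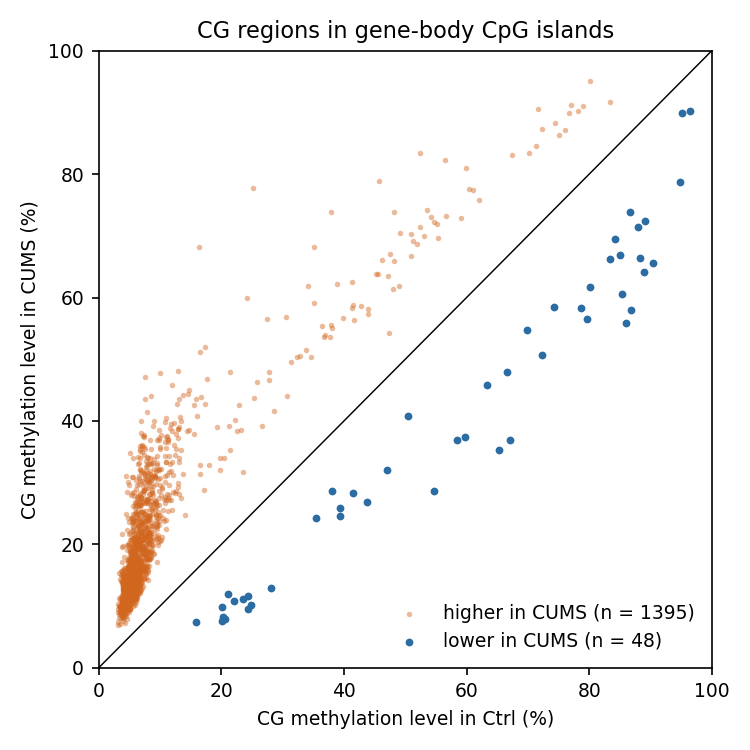
Level of each of the 1443 regions in Ctrl (horizontal, percent) and CUMS (vertical, percent), with the line of equal levels; orange points were higher in CUMS (1395) and blue points lower (48). Most orange points stand at Ctrl levels below 10%, the blue points start at 15.9%, and the empty band along the line is due to the choice of listed regions, which had to differ.

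Differences of at least 10 points were present in 843 regions (58.4%, against 76.1% of all CG regions). Of these, 801 were hypermethylated and 42 hypomethylated, which is 55.5% and 2.91% of the set. Over all CG regions 57.9% were hypermethylated and 18.2% hypomethylated by this amount. At 20 points or more there were 208 hypermethylated and 14 hypomethylated regions, together 15.4% of the set. Over all CG regions there were 1315 and 526, together 31.5%. Larger gains went with longer regions: the median difference was 8.52 points in the 588 regions of up to 100 bp, 11.5 in the 549 of up to 200 bp, 14.3 in the 261 of up to 400 bp and 18.9 in the 45 above 400 bp, all of which were hypermethylated.

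Between 20 and 80% in Ctrl both directions occurred, with 37 of 52 regions hypermethylated from 20 to 40%, 35 of 42 from 40 to 60% and 15 of 24 from 60 to 80%. At 80% or more in Ctrl, 16 of 18 regions were hypomethylated. This last count depends on which level is used to sort the regions: by the mean of both groups, 10 of 15 regions at 80% or more were hypermethylated.

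The 48 hypomethylated regions were divided at a Ctrl level of 50% into a high and a low set. Levels ran on across that limit, with 47.1% in Myorg and 50.5% in Grb10. In 29 the Ctrl level was 50% or more, and 24 of these lay in introns only. In the other 19 the Ctrl level was below 50%, and 1 of them lay in introns only. The low set included 12 regions that were below 15% in CUMS, such as the one in Sik1 (7.45% in CUMS and 15.9% in Ctrl), a salt-inducible kinase gene, and the one in Porcn (9.52% and 24.3%), which codes for the enzyme that attaches the lipid that Wnt proteins need for secretion.

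Among regions with at least 10 cytosines in a gene with a symbol, the 10 largest falls were in introns. Names of sequence clones were not taken as symbols, which left out AC239701.1 on an unplaced scaffold (59.8% in Ctrl and 37.4% in CUMS, 5′ UTR and exon), and falls of 30.1 points in exons of another unplaced scaffold are given with its genes below. In Rprd1b, a gene for a protein that binds the tail of RNA polymerase II, a region of 155 bp at chr3:146772091-146772245 fell from 86.0% in Ctrl to 55.9% in CUMS. A region shared by Atxn7, a subunit of the SAGA complex, and Psmd6, a proteasome subunit, stood at 86.9% in Ctrl and 58.0% in CUMS. Adpgk, an ADP-dependent glucokinase gene, went from 54.7% to 28.6%, and was the lowest of the 10 named falls in CUMS. The others, in Frmd5, Txndc9, Mctp1, Megf11, Cfap69, Traf3 and Aff1, had falls between 24.9 and 20.4 points. Megf11 held the one with the most cytosines (104 in the CG context over 353 bp), and Traf3, an adaptor of TNF receptor signalling, went from 58.4% to 36.9%. The regions in Rprd1b, Txndc9 and Traf3 carried a repeat annotation. In Aff1, Atxn7, Txndc9 and Rflnb the same gene also had listed CG regions in its promoter, and all of those were hypermethylated while the gene-body island region was hypomethylated. In Dock11 and AC239701.1 the listed regions of both kinds were hypomethylated. Of all CG regions in promoter islands, 99.04% were hypermethylated.

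The largest gains were also mostly intronic. An intronic region of Ankmy1 at chr9:93427968-93428268 went from 25.1% in Ctrl to 77.8% in CUMS, the largest difference of the set at 52.7 points. In St6galnac3, a sialyltransferase gene, a region went from 16.4% to 68.1%. Both of these regions carried a repeat annotation. In an exon of Samd1, which codes for a chromatin protein that binds CpG islands, 67 cytosines over 424 bp went from 7.57% to 43.6%. The intronic region of Baiap2l2 went from 7.56% to 47.1%, and the region in Rad9a, a DNA damage checkpoint gene, and Tbc1d10c, from 7.81% to 41.5%. Btbd9, Fig4 and Fcgr2a started higher, at 37.9%, 45.8% and 24.2%, and reached 73.9%, 79.0% and 59.9%. Fcgr2a codes for an Fc receptor of leukocytes, a cell type that the CD45- gate removes. Fam155b on chromosome X went from 17.4% to 52.0%, and an intronic region of Nol4l from 6.94% to 40.1%.

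The regions with the most cytosines gained methylation over longer stretches. Rnf217, a ubiquitin ligase gene, had 225 cytosines over 919 bp, at 25.1% in CUMS and 5.92% in Ctrl. Bend3, a transcriptional repressor that binds CpG-rich DNA, had 194 over 622 bp in an intron, at 27.1% and 7.93%. Dact3, a Wnt pathway inhibitor, had 189 cytosines at 28.9% and 17.2%, C1qtnf4 had 185 at 18.6% and 8.91%, and Ift88, a gene for a transport protein of cilia, had 169 at 31.5% and 8.33%.

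Hypomethylation was rarer at the 5′ end than in introns or 3′ UTRs. Of the 571 regions with a 5′ UTR annotation 563 (98.6%) were hypermethylated. The share was 97.2% for the 246 regions in exons only, 96.7% for the 120 in exons and introns, and 94.8% for the 484 in introns only. Near the 3′ end, 18 of 22 regions with a 3′ UTR or TES annotation and no 5′ UTR were hypermethylated, among them all 7 with a TES annotation, and the 4 that were not lay in Igsf11, Septin5, ENSRNOG00000060839 and, on an unplaced scaffold, ENSRNOG00000065867. No region had a TSS annotation. Promoter islands gave 99.04% (1342 of 1355), intergenic islands 89.1% (254 of 285) and CG regions outside islands 61.1% (1691 of 2766). The share in gene-body islands lay between those of promoter and intergenic islands, and the 5′ UTR share was close to that of promoter islands.

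**Figure D2:**
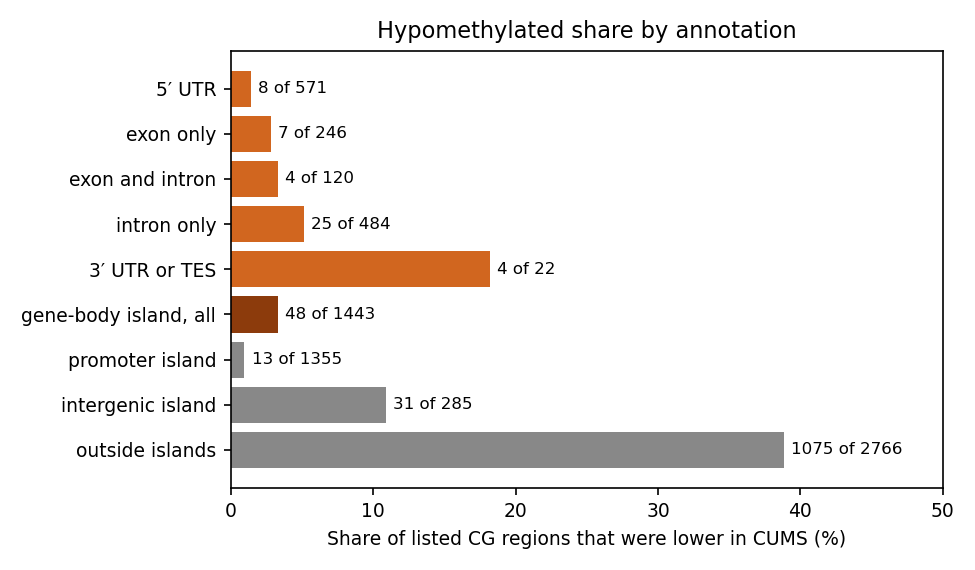
Share of listed CG regions that were lower in CUMS (percent), for gene-body islands by gene feature (orange), for all gene-body islands (dark) and for other classes of CG region (grey), with the numbers of regions beside the bars. Among the gene features shown the bar for 5′ UTR is the shortest (8 of 571), and the bar for regions outside islands the longest (1075 of 2766).

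Island by island, the direction was mostly that of the set. With 96.7% of the set hypermethylated, islands whose regions all went up would be common anyway. The regions lay in 1266 islands with a median length of 940.5 bp, and 1111 islands held 1 region. In 146 of the 155 islands with 2 or more regions all were hypermethylated, 9 were mixed, and in 0 all were hypomethylated. The regions covered a median of 14.96% of their island. With each island cut into 5 equal parts, 97.5% were hypermethylated in the middle part, 97.2% in the parts beside it and 95.4% in the outer parts. Neighbours within 5 kb had the same direction in 178 of 189 pairs (94.2%), near the share of the most common direction.

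The 11 opposite pairs had gaps of 86 to 2752 bp, and 9 of them lay within 1 kb, as did 171 of all 189 pairs. In Bend3 a region of 51 bp stood at 11.9% in CUMS and 21.2% in Ctrl, and 255 bp further on another stood at 29.3% and 10.4%. In Ckap4 the 2 regions were 86 bp apart, at 13.0% in CUMS and 28.2% in Ctrl and then at 14.7% and 4.75%. In Atp11a a region at 83.4% in CUMS and 52.4% in Ctrl was followed after 159 bp by one at 71.4% and 88.0%, which was annotated to an ERVK repeat. Of the 11 such pairs, 3 lay on 1 unplaced scaffold, where copies of a sequence can share reads.

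Chromosome X stood apart in the size of the differences. Its 83 regions had a median of 30.1% in CUMS and 9.84% in Ctrl, against 16.9% and 6.06% in the 1354 autosomal regions. The median difference was 19.6 points on X and 10.4 on autosomes, and 49.4% of X regions against 13.0% of autosomal ones differed by at least 20 points. The direction was alike, with 96.4% and 96.9% hypermethylated. In regions outside islands, the median absolute difference was 18.9 points on X and 19.9 on autosomes, so the gap was seen in islands. Male cells hold 1 copy of X, and the read depth on X is not given. A region on X with fewer reads may need a larger difference to be listed. The smallest absolute difference was 6.88 points among the 83 regions on X and 2.87 among the 1354 on autosomes. A smallest value tends to fall as the number of regions grows, so these values are not directly comparable. The part of depth in the gap between the medians was not tested. Among autosomes the median difference lay between 8.61 points (chromosome 17) and 13.8 (chromosome 13). The hypermethylated share ran from 88.6% on chromosome 11 (4 of 35 hypomethylated) to 100% on chromosomes 13 and 17, and chromosome 20 held 6 hypomethylated regions of 53.

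**Figure D3:**
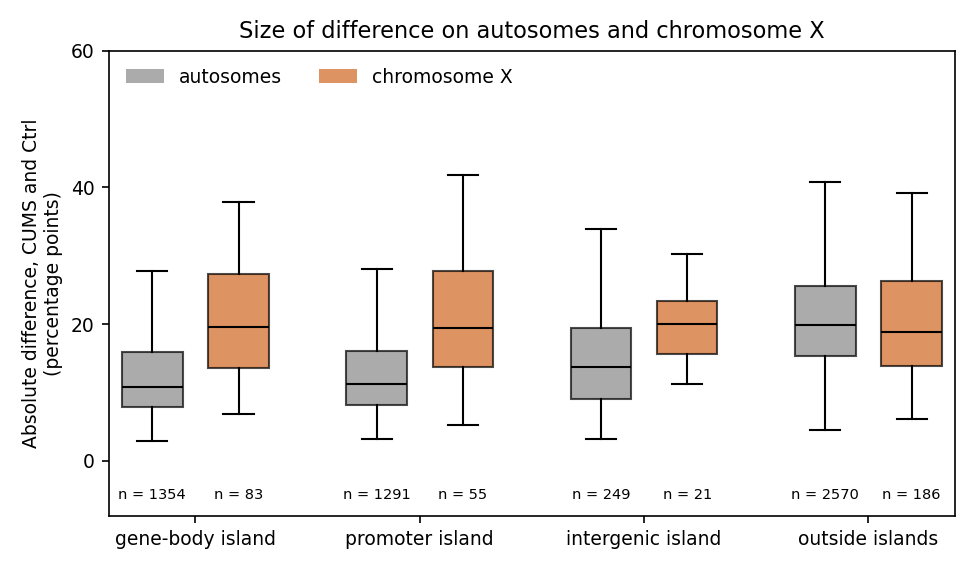
Absolute difference between CUMS and Ctrl (percentage points) for placed CG regions on autosomes (grey) and chromosome X (orange), by class; boxes span the quartiles, lines mark medians, whiskers reach at most 1.5 times the box height, and n counts regions. In gene-body islands the X box is higher (median 19.6 against 10.8 for autosomes, absolute values), whereas outside islands the boxes are level.

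The genes of the set numbered 1280 identifiers under 1278 names. Of the names, 193 held at least 2 regions and 9 at least 4. For 161 identifiers (12.6%) a promoter CG region was also listed. In 149 of them all regions of both kinds were hypermethylated, in 2 all were hypomethylated, and 10 were mixed. Most regions of the set (96.7%) and of promoter islands (99.04%) were hypermethylated, so a shared direction would be common anyway. The share of all genes with a listed promoter region is not given here.

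Gnas, which codes for the stimulatory G protein alpha subunit and lies in an imprinted domain, held 6 regions, all hypermethylated. Their levels in Ctrl and CUMS were 52.5% and 71.4%, 46.2% and 66.1%, 38.1% and 55.1%, 50.9% and 70.2%, 11.6% and 33.0%, and 7.38% and 23.1%, in order along the chromosome. The first 4 stood near the middle of the scale in Ctrl, and the last 2, 47.6 and 48.1 kb from the first, stood low. All differences lay between 15.7 and 21.4 points. All 11 CG regions listed for Gnas, including those in a promoter island and in shores, were hypermethylated.

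**Figure D4:**
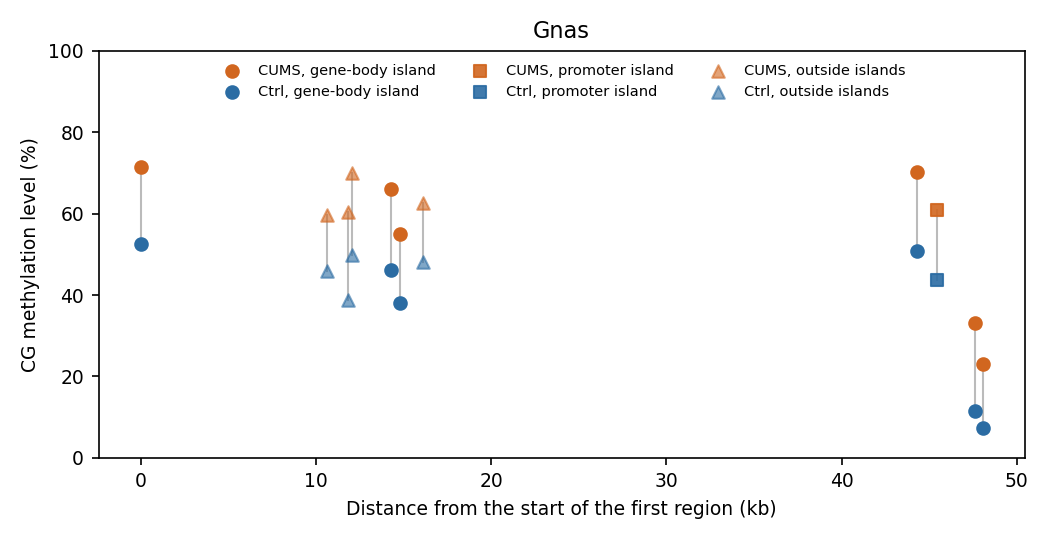
CG methylation level (percent) of the 11 CG regions of Gnas in CUMS (orange) and Ctrl (blue), by distance from the first region (kb); circles are gene-body island regions, squares a promoter island region and triangles regions outside islands, and grey lines join both groups. Every orange marker is above its blue one, and the last 2 regions stand lowest.

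The imprinted list held 12 regions in 6 genes, 6 of them the Gnas regions, and 11 were hypermethylated, with medians over all 12 of 59.5% in CUMS and 42.6% in Ctrl. The regions of the other genes spread widely, from 5.37% to 79.0% in Ctrl. Kcnq1, a potassium channel gene whose intron holds a known imprinting control element, went from 38.9% to 62.2%, and Plagl1, a zinc finger factor, from 39.9% to 56.7%. In Grb10, an adaptor of insulin receptor signalling, 1 region went from 45.3% to 63.8% and another, 191 bp away, from 50.5% to 40.8%. Peg10 was high in both groups (79.0% and 91.1%) and Inpp5f low (5.37% and 11.5%). Of these 12 regions, 10 hypermethylated ones differed by at least 10 points, where the share over the set was 58.4% in either direction. The list started from higher levels than the set, whose median in Ctrl was 6.23%. Over the set, 94.2% of regions from 20 to 40% in Ctrl and 95.2% from 40 to 60% differed by as much.

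Among genes of blood vessels, Vegfa, the growth factor of endothelial cells, held 4 hypermethylated regions on chromosome 9. They went from 6.06% to 26.2%, from 5.88% to 14.2%, from 6.87% to 19.3% and from 6.73% to 14.9%, the first 2 in the 5′ UTR and the others in an intron, all within 1.2 kb. Basp1, a membrane protein of growing axons, held 4, of which 2 neighbours in the 5′ UTR rose most, from 11.02% to 37.4% and from 6.73% to 26.2%. Nol4l and Gse1 held 4 hypermethylated regions each, with differences of 8.07 to 33.1 points and of 5.35 to 9.76 points.

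The blood–brain barrier and junction list held 4 regions in 3 genes. Both regions of the junction scaffold gene Tjp3 went up, from 36.9% to 54.0% and from 36.8% to 53.6%, and that of Tjp1 from 7.96% to 16.0%. Plvap, which codes for the diaphragm protein of leaky capillaries, fell from 39.4% to 24.7%. Of the 15 endothelial markers listed (Pecam1, Cdh5, Cldn5 and others) 0 held a region of the set, so the sorted identity could not be checked with it. Of 9 neuronal markers, Gad1, the GABA-forming enzyme (27.0% in CUMS and 7.96% in Ctrl), and Rbfox3 (22.8% and 7.68%) each held 1, both hypermethylated, and markers of astrocytes, oligodendrocytes, microglia and pericytes held 0. Methylation levels do not give the share of a cell type in the samples, and the part of cell composition in these differences was not tested.

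In genes of transcription regulators the direction was that of the set, in which 96.7% were higher and 55.5% higher by at least 10 points. All 32 regions in homeobox genes were hypermethylated, with a median difference of 10.6 points against 10.7 for the set, and 18 reached 10 points. The largest were in introns of Zfhx3, from 7.67% to 33.6% and from 8.95% to 32.2%, and in Pou2f1, from 8.93% to 33.2%. All 25 regions in Fox, Sox, T-box, Zic, Gata and Klf genes were hypermethylated as well, but smaller, with a median of 8.98 points and 8 at 10 points or more. Foxo6 (7.66% to 32.6%), Tbx1 (8.41% to 28.2%) and Klf2, a flow-responsive factor of endothelial cells (7.32% to 24.96%), led them. In zinc finger genes 28 of 29 were hypermethylated, with a median of 13.5 points, 18 of them by at least 10 points, and Zfp219 (4.51% to 31.1%), Zfp628 (6.80% to 32.2%) and Zfp704 (10.9% to 33.3%) were the largest. The 1 hypomethylated region was in Zfp365, at 20.6% in Ctrl and 7.93% in CUMS.

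All 32 regions in genes of chromatin and DNA methylation regulators were hypermethylated, 18 by at least 10 points, with a median of 11.3 points. On chromosome X, Kdm6a, a histone H3 lysine demethylase, went from 7.46% to 35.8%. Kmt2a, a histone methyltransferase, went from 15.5% to 42.6%.

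In genes of ion channels and guidance cues all regions were higher, and the share at 10 points or more varied from list to list. All 15 regions in potassium channel genes were hypermethylated, 12 by at least 10 points (80%, against 55.5% of the set), with a median of 13.7 points. This list started from higher levels, with a median in Ctrl of 9.52% against 6.23% for the set. Over the set, 616 of 1207 regions below 10% in Ctrl were hypermethylated by at least 10 points, against 99 of 100 from 10 to 20%. The part of the starting level in the share of this list was not tested. Kcnq5 went from 6.92% to 38.0%. The 5 regions in calcium channel genes were hypermethylated, 3 by 10 points or more, led by Cacna1a, a pore subunit of voltage-gated channels, from 6.51% to 30.7%, Cacng4 from 8.79% to 26.5% and Cacng2 from 30.7% to 44.0%. The 18 regions in guidance genes were all hypermethylated, 13 by 10 points or more, with a median of 11.5 points, led by the semaphorins Sema4c (8.48% to 35.4%), Sema3f (6.08% to 30.5%) and Sema7a (7.34% to 31.6%).

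In the Wnt, cadherin, and glutamate and GABA lists all regions were hypermethylated. The Wnt list held 6, with 4 at 10 points or more, led by Tcf7l2, a transcription factor of the pathway (7.78% to 30.6%), the ligand Wnt7b (6.49% to 20.8%) and the receptor Ryk (10.5% to 24.3%). The cadherin list held 5, with 3 at 10 points or more. Cdh20 was already at 55.1% in Ctrl and reached 72.0%, while Cdh2, N-cadherin, went from 3.595% to 15.7% and Pcdhga7 from 13.4% to 27.5%. The glutamate and GABA list held 3, of which the receptor genes Grm4 (22.3% to 40.1%) and Grin1 (7.25% to 21.2%) passed 10 points and Grina, which entered by the start of its name, did not (5.91% to 13.1%). In homocysteine metabolism 1 region was listed, in an intron of Cbs, which condenses homocysteine with serine, at 4.06% in Ctrl and 11.1% in CUMS.

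The lists together held 186 regions (12.9% of the set), and the other 1257 lay in genes of none of them. Since 96.7% of the set was hypermethylated, the counts of the lists are close to that of the set.

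**Figure D5:**
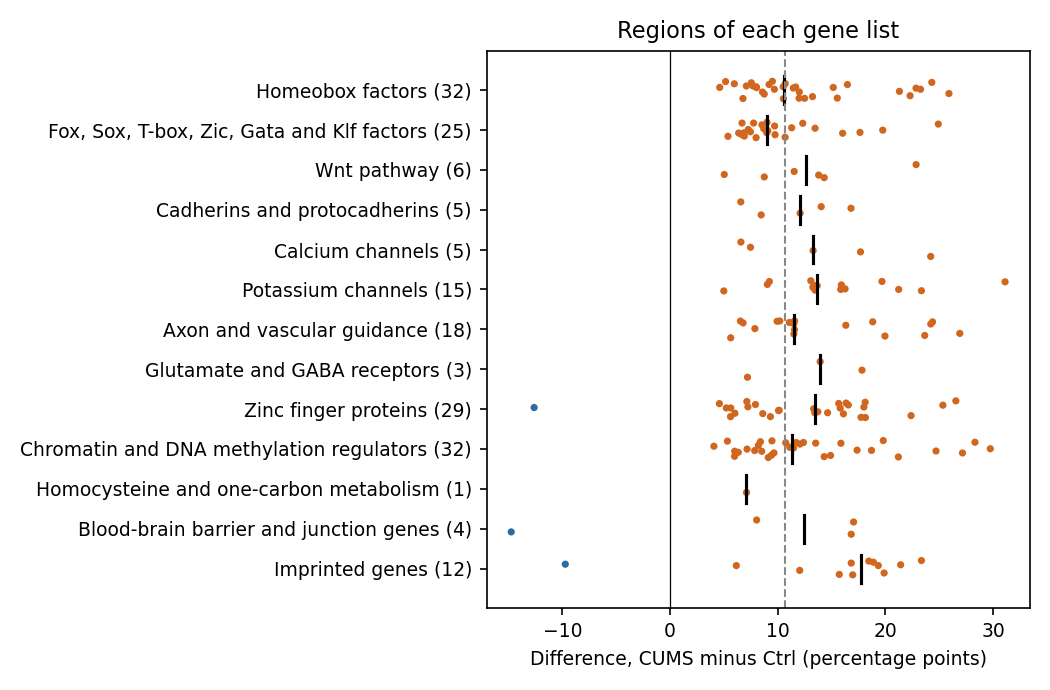
Difference, CUMS minus Ctrl (percentage points), of each region in 13 gene lists, with the number of regions in brackets; orange points are above 0, blue points below, black bars are list medians and the dashed line is the median of the set (10.7). Blue points occur in the zinc finger, barrier and imprinted lists, 1 in each, and the imprinted list has the median farthest to the right (17.7). That list also had a higher median level in Ctrl than the set (42.6% against 6.23%).

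Genes without a symbol were also among those with many regions. ENSRNOG00000039876 on chromosome 17 held 5 hypermethylated regions within 1.4 kb, with differences of 8.16 to 22.3 points. ENSRNOG00000069480 held 6 on chromosome 20, from 11.6 to 25.3 points, 3 of which also lay in RT1-CE11, a class I gene of the major histocompatibility complex. Members of that family are nearly identical, so the place of their reads is uncertain. ENSRNOG00000065867 and ENSRNOG00000065988 overlapped on 1 unplaced scaffold and shared 5 regions, of which 3 went up and 2 down by 30.1 points. These levels are uncertain, since copies of a sequence can share reads on such a scaffold. The 2 falls also held only 6 and 7 cytosines.

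Few of the regions overlapped repeats. Of the 20 that did, 13 were hypermethylated and 7 hypomethylated, 65.0% against 96.7% for the set, and most were long terminal repeats of the ERVK class. Their median level in Ctrl was 46.3%, against 6.23% for the set. Over the set, 83.3% of regions from 40 to 60% in Ctrl and 62.5% from 60 to 80% were hypermethylated. The 6 regions annotated to RLTR32_Rn alone had a median of 8.65% in Ctrl and 34.7% in CUMS, and 1 of them was lower in CUMS. Regions annotated to RLTR32_Rn and a second repeat lay in Rprd1b and Tigar, and both were lower in CUMS. They went from 86.0% in Ctrl to 55.9% in CUMS and from 96.4% to 90.3%. Copies of a repeat can share reads, so these levels are less certain than the rest.

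Other sequence contexts were rarely called at the same place. Regions in the CHG context, where H is any base but G, overlapped 44 of the 1443 (3.05%), with the same direction in 42. The share was 3.03% in promoter islands and 1.93% of all CG regions. These CHG regions had medians of 6.14% (CUMS) and 0.0648% (Ctrl). In the CHH context the annotated list overlapped 5 (0.347%), all in the same direction, against 1.18% of promoter islands and 0.513% of all CG regions. Because unconverted cytosine reads as methylated in any context, these CHG levels, in regions listed because they differed, are given beside the CG gains. The conversion rate per group is not given in the sources used here, and its part was not tested.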

How the data were processed

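The authors deposited CG methylation levels on the scale of a fraction (0 to 1), 1 pooled value per group, and the deposited tables also gave other numbers per region, its length and its cytosines in the CG context (whether both strands are counted is not stated). Per the labels and the study's methods, DNA was treated with TET2 and APOBEC3A, reads were trimmed with fastp 0.20.0 and checked with FastQC 0.11.3, aligned with Bismark 0.16.3 (Bowtie2) to mRatBN7.2 (rn7), and regions were called with DSS. A cytosine left undeaminated reads as methylated. The methods state a limit of 10 percentage points, but the list also holds smaller differences, and regions were kept as listed. The authors' difference and areaStat columns, which hold their comparison, and the gene-body profile were not used. The number of sample columns left unused was 0.

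Annotation rows were joined to 1 region by position and context. Levels were turned into percent and differences recomputed with Python 3.11.15, pandas 2.3.3, numpy 2.4.6, scipy 1.17.1 and matplotlib 3.10.9, and the counting was tested on simulated data. Samples were grouped by their titles. The planned tests over samples could not be run, and regions of 1 pair of groups are not replicates. Overlap meant at least 1 bp. Genes were named by rule: the 10 largest gains and 10 largest falls with at least 10 cytosines in a gene with a symbol, the 5 regions with the most cytosines, genes with at least 4 regions, up to 3 regions per gene list, and all regions of the homocysteine and barrier lists; other genes named were chosen after their values were seen, and some items that the rule names are not reported here. The members and lists were chosen with earlier results of these data known. Alternatives covered the size of difference, cytosine number, length, chromosomes, repeats, gene-body class, promoter rows, shores, joined neighbours, the gap between neighbours and the CHH list, and bins of the mean of both groups' levels were added after seeing the data. RefSeq promoters and symbols were those of GRCr8 and were matched by symbol or synonym. No interval was given, because the read depth of a region is not in the tables, although the study's methods state the coverage of the samples.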

Additional observations from a re-analysis of the deposited data

Results flagged for a closer look

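Outside the annotated list, the full list of CHH regions held 67 more that overlapped a CG region of a gene-body island, each a different one. With these, the full list overlapped 5.06% of the set, 6.64% of promoter islands and 4.15% of all CG regions, so the share of the set lay between them. Of these, 60 were higher and 7 lower in CUMS, and their median levels were 5.28% (CUMS) and 0.1602% (Ctrl). They stand out because the comparisons above use the annotated list and the level in Ctrl is near 0. None lay on an unplaced scaffold (0 of 67). Whether conversion differed between the groups was not tested.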

How the results depend on the processing

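No paired analysis was possible because each group has 1 pooled level and no value per sample, and leaving out replicates could not be run for the same reason. Of 94 alternatives over 18 results, 81 kept a value within the limit set for it and 13 moved it further. The limit for a share was its 95% binomial interval over regions, used only to sort the alternatives. For a count it was a ratio of 1.5. The hypermethylated share of the set was 95.02% at 10 points or more, 93.7% at 20 points or more, 97.6% with exon or UTR rows only and 97.7% with promoter rows included, against 96.7%. At 10 points or more, it was 96.3% for exon regions and 94.4% for intron regions, 100% for Ctrl levels below 20%, and genes with several regions numbered 87 against 193. At 20 points or more the median CUMS level was 34.1% and the median difference 24.1 points, by the construction of that limit. Sorted by the mean of both groups, chosen after seeing the data, 66.7% of regions at 80% or more were hypermethylated against 11.1%, which turned the more common direction there, and 99.1% below 20%. With the full list of CHH regions 5.06% of the set overlapped one, against 0.347%. The depth of each region is unknown, so no level carries an error.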
